A study of Homo sapiens with 16 samples.

Results

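The cadherins *CDH1*, *CDH2* and *CDH3*, the adhesion genes *EPCAM* and *CTNNB1*, the mesenchymal filament gene *VIM* and the transcription factors *ZEB1*, *ZEB2*, *TWIST1* and *SNAI1* were examined across RNA-seq libraries of MCF10A cells. These 10 genes are a list of symbols, with no threshold on their values, and all 10 were found among the 26475 genes of the count table. MCF10A is an established, non-tumorigenic human breast epithelial cell line, so that all 16 libraries are models of 1 line rather than of breast tissue. The labels gave 4 groups of 4 libraries. The control received DMSO (the vehicle) and changes of normal medium, with no collagen. The other groups all received collagen at 0.05 mg/mL for 24 h: collagen with vehicle, collagen with DDR1-IN-1 at 2 μM (DDR1i, an inhibitor of the collagen receptor kinase DDR1) and collagen with AI-10-104 at 5 μM (RUNXi, which keeps RUNX proteins from binding CBFβ). Each inhibitor was present for 48 h and was used at a single dose. A comparison of an inhibitor group with the control therefore differs in both collagen and inhibitor.

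Epithelial cells are held together by adherens junctions, in which cadherins on neighbouring cells bind each other and β-catenin links their tails to the cytoskeleton. In epithelial-mesenchymal transition (EMT), cells loosen these contacts, E-cadherin gives way to N-cadherin, and vimentin filaments appear. The transcription factors of the ZEB, TWIST and SNAIL families bind E-box sequences and repress epithelial genes such as *CDH1*. Basal breast epithelial cells express P-cadherin together with E-cadherin, and MCF10A cells in culture are known to express vimentin.

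Total counts ranged from 12184619 to 44332378 per library. Collagen replicate 3, which the study removed as an outlier, was left out of the tests, and its values are given beside the others. The basal keratin *KRT5* was abundant in every library (median 9354 CPM). Luminal markers were mixed. The hormone receptor gene *PGR* had 0 counts in all 16 libraries and *ESR1* had a median of 0.295 CPM, whereas *KRT18*, *KRT8* and *GATA3* had medians of 412, 120 and 12.8 CPM. The 7 fibroblast markers together reached 5.42 to 17.4 CPM with DDR1i and 9.02 to 28.8 CPM in the control. Among them *DCN* had the highest median over all libraries (13.4 CPM), and *COL3A1* had 0 counts. *CDKN2A*, which is known to be deleted in MCF10A, also had 0 counts throughout. The labels do not say whether replicates came from separate cultures, so that p-values measure the spread between these libraries, which may be technical.

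Normalized counts (CPM, scaled to library size with edgeR's TMM method) were divided by the length of each gene's canonical transcript to compare levels between genes. On this scale, averaged over 16 libraries, *VIM* stood at 411 CPM per kb and *CTNNB1*, which encodes β-catenin, at 71.3. *CDH3* (P-cadherin) followed at 49.8, *EPCAM* (an epithelial cell surface glycoprotein) at 21.9 and *CDH1* (E-cadherin) at 18.3. Of the transcription factors, *TWIST1* was the most abundant at 10.8 CPM per kb. *CDH2* (N-cadherin) stood at 2.50, *ZEB1* at 1.03, *ZEB2* at 0.447 and *SNAI1* at 0.306. The control already carried *VIM* well above every cadherin, and no group lacked *CDH1*.

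Counting error is small for *VIM*, with 332851 reads in all, and large for *SNAI1*, with 200. The within-group coefficient of variation, averaged over the groups, was 8.86% for *CTNNB1*, 9.96% for *VIM*, 10.2% for *CDH3* and 15.4% for *CDH1*, against a median of 19.4% over all tested genes. It was 46.4% for *ZEB1*, 58.2% for *ZEB2* and 102% for *SNAI1*. A change in the ZEB or SNAIL genes had therefore to be larger than a change in *VIM* or *CDH3* to exceed the spread between libraries.

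**Figure D1:**
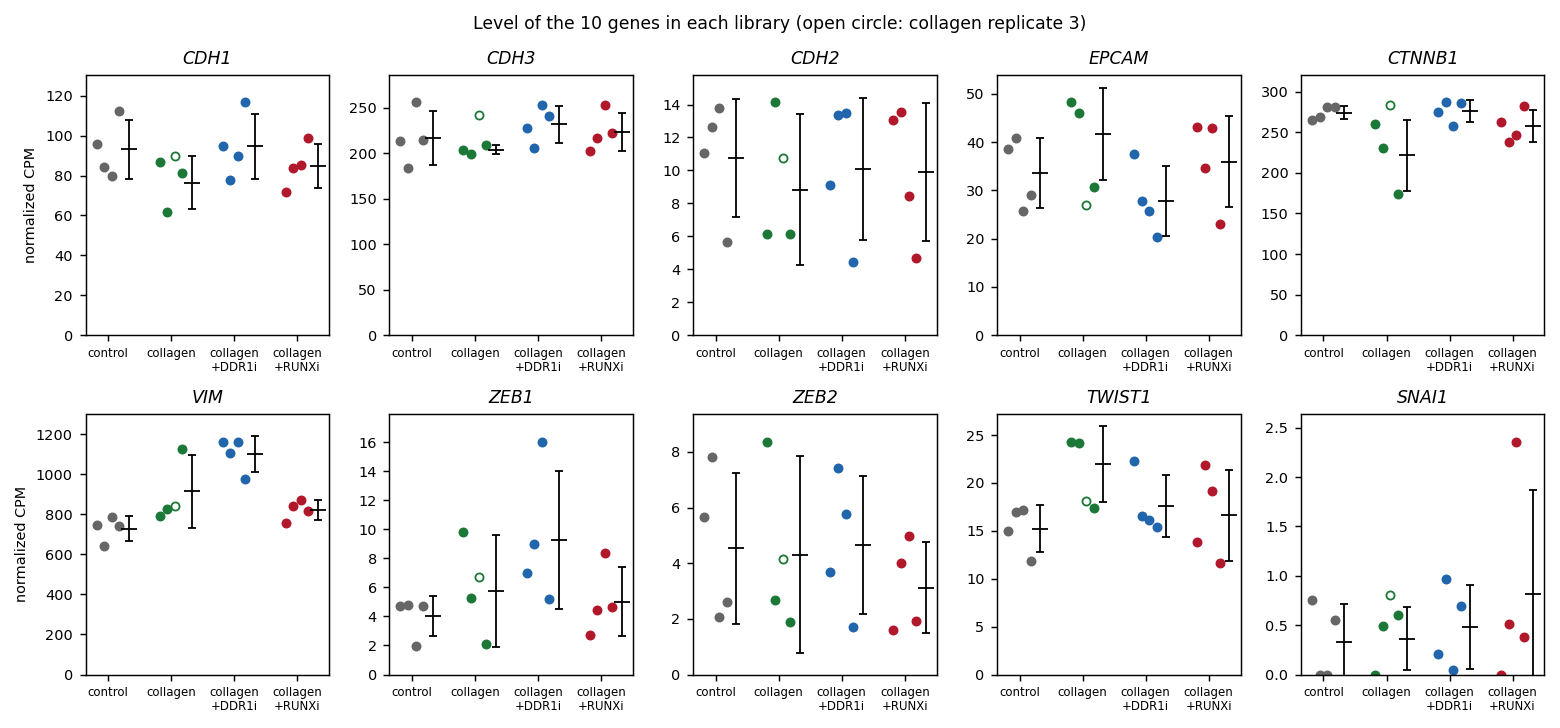
Normalized CPM (linear axis from 0) of the 10 genes in each of the 16 libraries by group; points are libraries, the open circle is collagen replicate 3, and the bars give mean ± SD without it. *VIM* lies between 975 and 1161 CPM in the 4 libraries with DDR1i and between 639 and 784 CPM in the control, whereas the other panels show overlapping groups or, for *CTNNB1*, *TWIST1* and *ZEB1*, groups that separate, the open circle of *CTNNB1* aside, only between the control and a collagen group.

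*VIM* (chromosome 10, 17270240 to 17279592, plus strand, GRCh37) encodes vimentin, the intermediate filament of mesenchymal cells. Its levels in control replicates 1 to 4 were 745, 639, 784 and 742 CPM. They were 792, 826, 842 and 1125 CPM with collagen alone, where the third value is the library left out of the tests. With collagen and DDR1i they were 1161, 1104, 1161 and 975 CPM. Every library with DDR1i was above every control library, a separation seen in 3.25% of the genes tested in that comparison. With collagen and RUNXi, *VIM* was at 754, 842, 873 and 815 CPM, below every library with DDR1i and overlapping the control.

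*VIM* was higher with collagen and DDR1i than in the control, by 0.60 on the log2 scale (SE 0.09, 95% confidence interval 0.42 to 0.79). This was the only one of 60 tests of the 10 genes in 6 comparisons that passed the threshold of 0.05, with an adjusted p of 0.0023 (edgeR's quasi-likelihood test, adjusted by Benjamini-Hochberg over 13213 genes). In that comparison, 1 of the 10 genes was called, where 0.212% of all tested genes were (0.151% as higher), and *VIM* ranked 5 by p-value. In bulk RNA, more cells that express a gene and more RNA per cell cannot be told apart. The 5 basal markers together stood at 11343 to 16135 CPM with DDR1i and 15269 to 19296 CPM in the control. Of these 5, 3 had fold changes below 0 (1 called) and 2 above 0 (0 called). The 7 luminal markers together stood at 537 to 714 and 449 to 602 CPM, with *KRT18* the most abundant (median 412 CPM over all libraries). Of the 5 luminal markers tested, 4 had fold changes below 0 and 1 above, and 0 were called. The part of these markers in the *VIM* result was not tested. The difference lay between 0.55 and 0.66 when any 1 of the 12 libraries of that fit was left out, and it passed the threshold each time. When each library was first corrected for a dependence of its counts on transcript length, the difference was 0.47 and no longer passed (adjusted p = 0.0736 in the same edgeR test). That correction also moved the median of all genes to −0.11, and relative to the median *VIM* stood at 0.58, against 0.59 without it. The difference from the median was not tested, and the SE was 0.10 with the correction and 0.09 without.

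Against collagen alone, *VIM* was 0.27 higher with DDR1i (SE 0.12, 95% confidence interval 0.01 to 0.52) and did not pass the test (edgeR adjusted p = 0.246). The value depended on single collagen libraries. It was 0.16 without collagen replicate 1 and 0.18 without replicate 2, and neither passed, whereas without replicate 4, at 1125 CPM, it was 0.45 and passed (edgeR adjusted p = 0.0448, in 1 of 11 fits that left out a library). With collagen replicate 3 put back, it was 0.29 (edgeR adjusted p = 0.530). In the comparison of collagen alone with the control, the 3 collagen libraries in the test were all above the 4 control libraries (such a gap between groups was seen in 13.6% of tested genes), with a difference of 0.34 (SE 0.14) that did not pass (edgeR adjusted p = 0.286) and was 0.16 without collagen replicate 4.

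The inhibitors were compared directly with each other. *VIM* was 0.43 higher with DDR1i than with RUNXi on the log2 scale (SE 0.11, 95% confidence interval 0.20 to 0.66), and the groups did not overlap, as was the case for 4.5% of all tested genes. The adjusted p was 0.111 with edgeR's quasi-likelihood test, 0.0244 with DESeq2, 0.0481 with edgeR without the filter on low counts and 0.0067 with edgeR without collagen replicate 4. Of the 8 alternatives that left out no single library, the other 6 did not pass (adjusted p = 0.051 to 0.176 with edgeR), nor did 10 of the 11 fits that left out a library (up to 0.429). In RUNXi against control, *VIM* differed by 0.17 (95% confidence interval −0.01 to 0.36, edgeR adjusted p = 0.76). RUNXi against collagen gave −0.16 (95% confidence interval −0.41 to 0.09, edgeR adjusted p = 0.485).

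**Figure D2:**
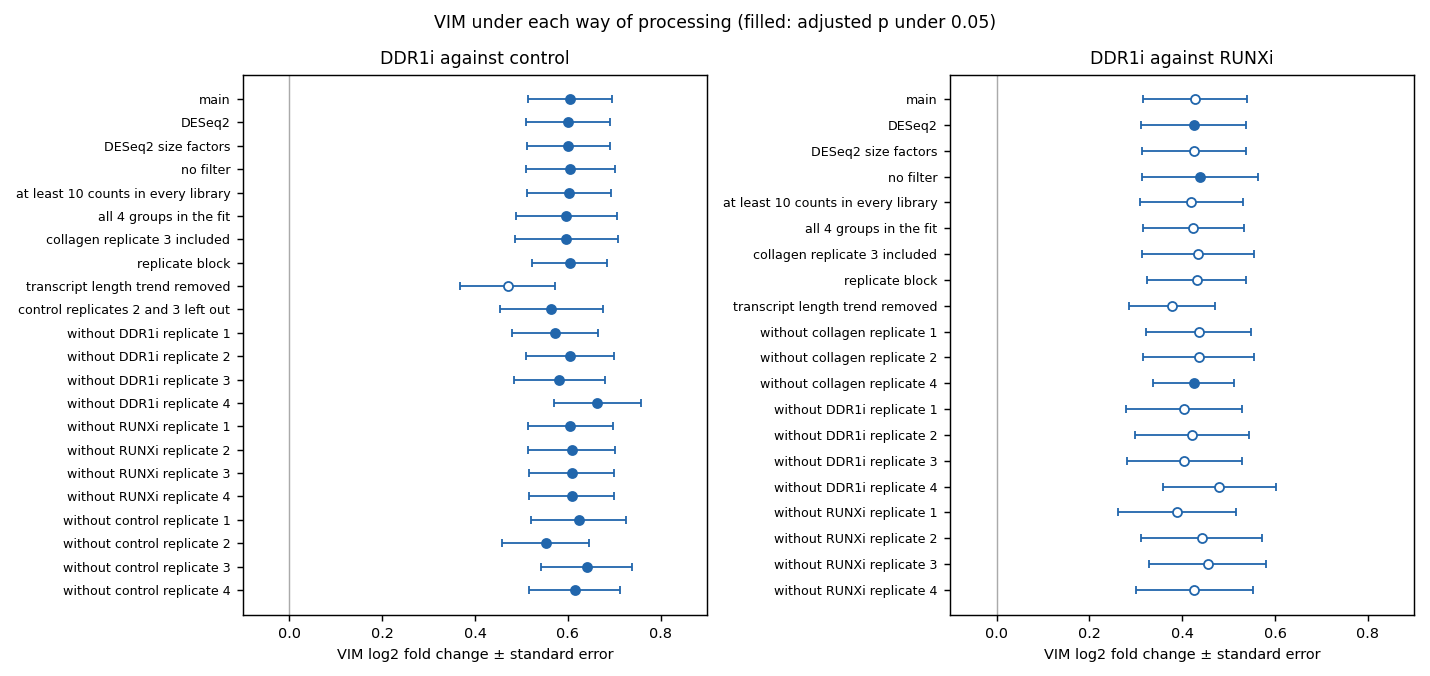
*VIM* log2 fold change ± standard error (x axis) for collagen with DDR1i against the control (left) and against collagen with RUNXi (right) under each way of processing and with each library left out (y axis); filled points passed an adjusted p of 0.05. All points on the left lie between 0.47 and 0.66, and the only open one is that with the length trend removed; on the right, 3 points are filled.

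The promoter of *VIM* is shown because *VIM* passed the test in DDR1i against control and because RUNXi acts on a DNA-binding complex. With RUNXi, *VIM* passed neither against collagen nor against the control. The promoter sequences available here, which come from RefSeq on GRCh38.p14, held 12 windows for 5 of the genes (*CDH2*, *CTNNB1*, *VIM*, *ZEB1* and *ZEB2*). The RUNX core motif was searched as TGTGGT or ACCACA on both strands. It was found in 1 window of *VIM* and in 2 of the 7 windows of *ZEB1*, and 13.1% of all 35116 windows of 300 bases held it. In the window of *VIM*, chr10:17227991-17228270 on the plus strand, the capitals mark the motif, which lies 96 to 91 bases before the annotated start; the run ends 30 bases after that start.
VIM: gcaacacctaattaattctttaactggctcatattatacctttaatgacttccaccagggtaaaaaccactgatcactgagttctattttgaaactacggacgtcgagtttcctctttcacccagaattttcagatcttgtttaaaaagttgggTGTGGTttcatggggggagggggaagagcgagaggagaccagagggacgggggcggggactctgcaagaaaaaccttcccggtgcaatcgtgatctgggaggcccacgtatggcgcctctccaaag
The E-box CAGGTG or CACCTG, the kind bound by ZEB and SNAIL proteins, was found in 2 windows of *ZEB1*, among 20.6% of all windows. A match of letters does not show that a factor was bound.

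*CDH1* and *CDH3* are neighbours on chromosome 16, with *CDH3* at 68670092 to 68761371 and *CDH1* at 68771195 to 68869440, both on the plus strand (GRCh37). The levels of *CDH1* in replicates 1 to 4 were 96.0, 84.4, 79.6 and 112 CPM in the control and 86.6, 61.6, 89.9 and 81.3 CPM with collagen alone. They were 94.8, 77.8, 89.7 and 117 CPM with DDR1i and 71.6, 84.0, 85.3 and 98.7 CPM with RUNXi. The 4 groups overlapped throughout. The difference of *CDH1* was 0.31 for DDR1i against collagen (95% confidence interval −0.01 to 0.62; 0.16 without collagen replicate 2) and 0.15 for RUNXi against collagen (−0.17 to 0.46). Collagen against control gave −0.28 (−0.64 to 0.08; −0.14 without collagen replicate 2), and DDR1i against control gave 0.03 (−0.26 to 0.32). The intervals of DDR1i against control thus excluded a change of *CDH1* by more than 0.32 in either direction, while none of its 6 edgeR tests passed.

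*CDH3* had the narrowest range of the 10 genes, 1.39-fold from the lowest to the highest library. Its levels were 213, 184, 256 and 214 CPM in the control, 203, 199, 242 and 210 CPM with collagen alone, 228, 206, 253 and 241 CPM with DDR1i and 203, 217, 253 and 222 CPM with RUNXi. Replicate 3 was the highest in all 4 groups, and the groups overlapped. The differences of *CDH3* ran from −0.08 in collagen against control to 0.18 in DDR1i against collagen, and none passed the test.

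*CDH2* (chromosome 18, 25512843 to 25757910, minus strand, GRCh37) was detected in every library. It stood at 11.03, 12.63, 13.76 and 5.67 CPM in the control, 6.17, 14.12, 10.73 and 6.17 CPM with collagen alone, 9.12, 13.36, 13.48 and 4.42 CPM with DDR1i and 13.05, 13.52, 8.47 and 4.66 CPM with RUNXi. The library numbered 4 was the lowest in each group, level with replicate 1 at this precision with collagen alone, while the groups overlapped. The largest of its 6 differences in size was −0.27 (SE 0.39), in collagen against control, and none passed.

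Ratios of 2 genes within the same library do not depend on library size. Per base of transcript, *CDH3* exceeded *CDH1* by 2.06-fold to 3.50-fold in the 16 libraries. The *CDH3*/*CDH1* log2 ratio was 1.34 ± 0.32 in the control, 1.54 ± 0.19 with collagen, 1.42 ± 0.20 with DDR1i and 1.52 ± 0.18 with RUNXi (SD, n = 4 each, collagen replicate 3 included). The *CDH2*/*CDH1* ratio lay between 0.0454 and 0.275, with group means of its log2 from −3.08 to −2.92. The SDs of its log2 ran from 0.78 to 0.99 (n = 4 each). This ratio was not tested between groups, and with such a spread only a large exchange of *CDH1* for *CDH2* could have been seen. The *VIM*/*CDH1* log2 ratio was 4.13 ± 0.24 in the control, 4.65 ± 0.32 with collagen, 4.71 ± 0.34 with DDR1i and 4.44 ± 0.16 with RUNXi (SD, n = 4 each). The ranges of the ratio with collagen and with DDR1i overlapped. The control, with a log2 ratio of up to 4.46, overlapped every other group. The lowest values were 4.35 with collagen, 4.22 with DDR1i and 4.20 with RUNXi.

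*EPCAM* (chromosome 2, 47572297 to 47614740, plus strand, GRCh37) stood at 38.5, 40.9, 25.8 and 29.1 CPM in the control and at 48.2, 46.0, 27.0 and 30.7 CPM with collagen alone. With DDR1i it was at 37.5, 27.8, 25.6 and 20.2 CPM, and with RUNXi at 43.2, 34.6, 43.0 and 23.1 CPM. The lowest value was in a library with DDR1i, but the groups overlapped. For DDR1i against collagen the difference was −0.58 (SE 0.22, 95% confidence interval −1.03 to −0.13), with an edgeR adjusted p of 0.150. It passed without the filter on low counts (edgeR adjusted p = 0.0348) and without DDR1i replicate 1, the highest of its group (−0.77, edgeR adjusted p = 0.0472), and moved away with collagen replicate 3 included (−0.45, edgeR adjusted p = 0.593).

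*CTNNB1* (chromosome 3, 41236232 to 41301587, plus strand, GRCh37) stood at 265, 269, 281 and 281 CPM in the control, 260, 230, 283 and 174 CPM with collagen alone, 275, 287, 257 and 286 CPM with DDR1i and 263, 238, 246 and 283 CPM with RUNXi. Collagen replicate 4 was the lowest of the 16 libraries. Collagen against control gave −0.30 (SE 0.14, edgeR adjusted p = 0.368). The 3 collagen libraries in that test were below all 4 controls, while collagen replicate 3 was above them. A gap between these groups, without replicate 3, was seen in 13.6% of tested genes. DDR1i against collagen gave 0.32 (SE 0.13, edgeR adjusted p = 0.167). Without collagen replicate 4 these differences were −0.15 and 0.18.

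*ZEB1* (chromosome 10, 31607424 to 31818742, plus strand, GRCh37) encodes a zinc finger repressor of epithelial genes. Its levels were 4.69, 4.79, 1.99 and 4.74 CPM in the control and 9.82, 5.29, 6.71 and 2.12 CPM with collagen alone. With DDR1i they were 6.95, 8.98, 16.02 and 5.17 CPM, and with RUNXi 2.71, 4.43, 8.35 and 4.62 CPM. All 4 libraries with DDR1i were above all 4 controls, and 3.25% of the genes tested in that comparison had groups that did not overlap. The difference was 1.20 (SE 0.42, 95% confidence interval 0.32 to 2.07) and did not pass (edgeR adjusted p = 0.611). Counts of *ZEB1* ranged from 32 to 360 per library. DDR1i against RUNXi gave 0.90 (SE 0.43, edgeR adjusted p = 0.793), with overlapping groups, and 0.51 without DDR1i replicate 3, the library at 16.02 CPM.

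*ZEB2* (chromosome 2, 145121931 to 145278624, minus strand, GRCh37), a close relative of *ZEB1*, stood between 1.60 and 8.36 CPM. It had 5.66, 7.83, 2.06 and 2.60 CPM in the control, 8.36, 2.68, 4.16 and 1.88 CPM with collagen alone, 3.69, 7.40, 5.78 and 1.70 CPM with DDR1i and 1.60, 4.02, 4.97 and 1.91 CPM with RUNXi. Each group held both low and high libraries. Its differences ran from −0.54 (SE 0.55, RUNXi against control) to 0.59 (SE 0.51, DDR1i against RUNXi), each near its standard error.

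*TWIST1*, a basic helix-loop-helix factor encoded on the minus strand of chromosome 7, stood at 14.9, 16.9, 17.1 and 11.8 CPM in the control and at 24.3, 24.2, 18.1 and 17.4 CPM with collagen alone. It was at 22.3, 16.6, 16.1 and 15.4 CPM with DDR1i and at 13.8, 21.9, 19.1 and 11.6 CPM with RUNXi. All collagen libraries, replicate 3 included, were above all control libraries, at the closest 17.4 against 17.1 CPM. Without replicate 3, such a gap between these groups was seen in 13.6% of tested genes. Collagen against control gave 0.54 (SE 0.25, 95% confidence interval 0.02 to 1.06), which did not pass (edgeR adjusted p = 0.345). The inhibitors against collagen gave −0.32 (SE 0.23) for DDR1i and −0.41 (SE 0.23) for RUNXi, neither of which passed.

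*SNAI1* (chromosome 20, 48599517 to 48605423, plus strand, GRCh37) was near the limit of detection. It had 34, 0, 0 and 19 counts in the control, 0, 13, 22 and 15 with collagen alone, 5, 22, 1 and 11 with DDR1i and 0, 11, 37 and 10 with RUNXi. Zeros and counts above 10 stood in the same group. The 95% confidence interval of DDR1i against collagen ran from −2.75 to 3.48, so that only very large changes of *SNAI1* could have been detected at this depth.

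**Figure D3:**
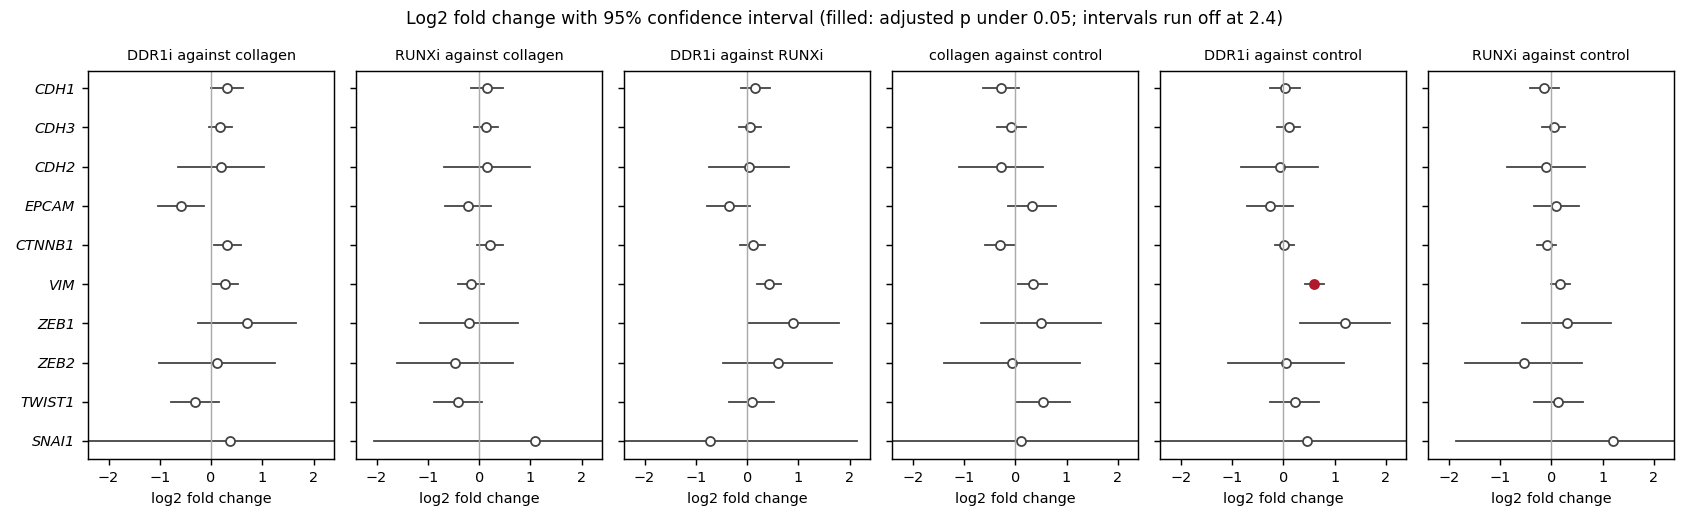
Log2 fold change (x axis) with 95% confidence interval of the 10 genes (y axis) in each of the 6 comparisons from edgeR; the filled point passed an adjusted p of 0.05, and intervals of *SNAI1* run beyond the axis. The only filled point is *VIM* in DDR1i against control, at 0.60.

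None of the 10 genes was called in any comparison other than DDR1i against control. Of all tested genes, 2.47% were called in DDR1i against collagen and 4.05% in RUNXi against collagen, which share the same 3 collagen libraries. The percentage was 0.568% in DDR1i against RUNXi and 0.401% in RUNXi against control. In collagen against control, 0% of 13092 genes were called by edgeR (1754 at an unadjusted p under 0.05), whereas DESeq2 called 414, none of them among the 10. At an unadjusted p under 0.05 stood 3 of the 10 genes in DDR1i against collagen (*VIM*, *EPCAM* and *CTNNB1*; 18% of all genes), 2 in DDR1i against RUNXi (*VIM* and *ZEB1*; 6.19%), 3 in collagen against control (*VIM*, *CTNNB1* and *TWIST1*; 13.4%) and 2 in DDR1i against control (*VIM* and *ZEB1*; 5.13%). There were 0 in each comparison of RUNXi with collagen (21.1% of all genes) and control (6.81%). Counts of 0 to 3 among 10 genes give no result about the 10 as a group.

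**Figure D4:**
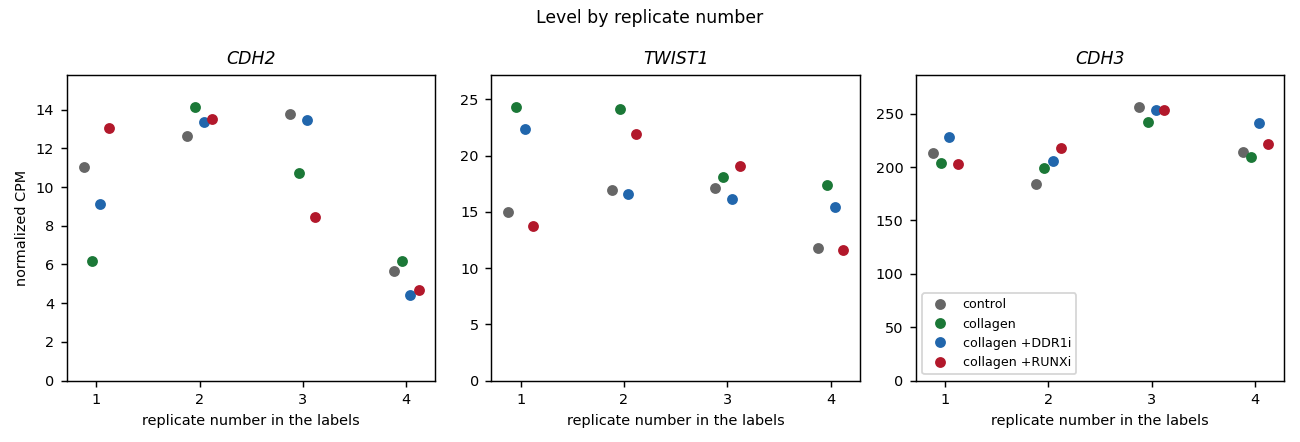
Normalized CPM (linear axis from 0) of *CDH2*, *TWIST1* and *CDH3* by the replicate number in the labels (x axis), with the groups in colours. The library numbered 4 is the lowest of its group for *CDH2* and *TWIST1* in all 4 groups, and number 3 is the highest for *CDH3*.

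The numbers of the replicates went with some of these values. The same number was lowest in 4 of 4 groups for *CDH2* and *TWIST1*, as for 6% of 13518 genes, and highest in 4 of 4 groups for *CDH3*, as for 5.36%. The labels do not say what libraries of the same number share.

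Genes with related roles were taken from lists of adhesion, EMT and β-catenin genes. Of 8 tight junction genes tested in DDR1i against collagen, *TJP1*, which encodes a scaffold protein, rose (0.53, SE 0.14) and *CLDN7*, a claudin of the junction strand, fell (−0.86, SE 0.20). Their edgeR adjusted p-values were 0.0362 and 0.0249. In RUNXi against collagen *CLDN7* was also lower (−0.74, SE 0.20) and *CLDN1* was higher (0.77, SE 0.22), with edgeR adjusted p-values of 0.0407 and 0.0472. In each comparison the other 6 tight junction genes were not called. Over all tested genes, 2.47% were called in DDR1i against collagen and 4.05% in RUNXi against collagen. The median log2 fold change of the 8 genes was 0.48 for DDR1i and 0.26 for RUNXi, with 0.00 and 0.01 over all tested genes.

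Desmosomes join epithelial cells through desmogleins and desmoplakin. Of 10 desmosomal genes, 1 was higher in each comparison with collagen, the desmoglein *DSG2* with DDR1i (0.70, SE 0.17, edgeR adjusted p = 0.0340) and the plaque protein gene *DSP* with RUNXi (0.80, SE 0.19, edgeR adjusted p = 0.0244). The shares called over all tested genes were 2.47% and 4.05%, and 1 gene of 10 gives no result about the list. Against the control, *DSG3* was lower with DDR1i (−0.59, SE 0.12, edgeR adjusted p = 0.0422) and with RUNXi (−0.56, SE 0.12, edgeR adjusted p = 0.0471). The plakin gene *PPL* was lower with DDR1i (−1.57, SE 0.32, edgeR adjusted p = 0.0484). These 3 calls against the control, where 0.212% (DDR1i) and 0.401% (RUNXi) of all tested genes were called, were marginal. When 1 library was left out, *DSG3* passed in 1 of 12 fits in each comparison (edgeR adjusted p up to 0.307 and 0.241) and *PPL* in 3 of 12 (up to 0.308), and with all 4 groups in the fit none of them passed (0.254, 0.231 and 0.290). Of 8 partners of cadherins in adherens junctions, including the catenins, 0 were called in each of the 6 comparisons. With 0% to 4.05% of all tested genes called there, 0 of 8 gives no result about these partners.

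Of 6 other cadherins, 3 were tested. Against collagen, 1 was called with DDR1i and 2 with RUNXi (2.47% and 4.05% of all tested genes). R-cadherin (*CDH4*) rose from 60.3 ± 2.67 CPM with collagen (n = 3) to 95.04 ± 8.40 with DDR1i and 92.2 ± 3.82 with RUNXi (SD, n = 4). These were differences of 0.65 (SE 0.12, edgeR adjusted p = 0.0069) and 0.61 (SE 0.12, edgeR adjusted p = 0.0107). The control was at 73.1 ± 1.05 CPM, and no comparison of *CDH4* with the control passed. T-cadherin (*CDH13*), which lacks a cytoplasmic tail, was higher with RUNXi than with collagen (0.47, SE 0.13, edgeR adjusted p = 0.0419).

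Of 17 mesenchymal genes tested, 2 were higher with DDR1i than with collagen, where 2.47% of all tested genes were called. The receptor kinase gene *AXL* rose from 95.1 ± 13.8 CPM (n = 3) to 170 ± 17.5 (n = 4), a difference of 0.83 (SE 0.13, edgeR adjusted p = 0.0014), and fibronectin (*FN1*) from 286 ± 50.3 to 588 ± 227 CPM, a difference of 1.03 (SE 0.24, edgeR adjusted p = 0.0389). With RUNXi, *AXL* (0.56, SE 0.13) and *FN1* (1.20, SE 0.24) were higher and the actin-binding protein gene *TAGLN* was lower (−1.22, SE 0.21). Their edgeR adjusted p-values were 0.0180, 0.0198 and 0.0023. In RUNXi against collagen, 4.05% of all tested genes were called. *AXL* was also higher with DDR1i than in the control (0.72, SE 0.11, edgeR adjusted p = 0.0021). It was thus called, like *VIM*, in DDR1i against control (0.212% of all tested genes), and the other 16 genes of the list were not. The median of the 17 was 0.34 in that comparison and 0.01 over all tested genes.

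The inhibitors differed from each other in 2 genes of these lists, where 0.568% of all tested genes were called. *CLDN1* stood at 21.4 ± 9.04 CPM with DDR1i and 50.7 ± 7.07 with RUNXi (SD, n = 4), a difference of −1.25 (SE 0.20, edgeR adjusted p = 0.0015). *TAGLN* stood at 46.9 ± 13.3 CPM with DDR1i and 22.4 ± 4.78 with RUNXi (SD, n = 4), a difference of 1.07 (SE 0.20, edgeR adjusted p = 0.0043). Both passed in all 11 fits that left out a library.

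The transcription factors around the EMT program gave no call. Of 8 other EMT factors tested (of 10 listed), 10 epithelial regulators (of 12) and 6 β-catenin target genes (of 11), 0 were called in each of the 6 comparisons. Over all tested genes, 0% to 4.05% were called in these comparisons. At such shares, 0 calls among so few genes give no result about these lists. The median of the epithelial regulators was −0.23 in DDR1i against collagen, with 9 of 10 fold changes below 0, and −0.13 in RUNXi against collagen, with 7 of 10. At an unadjusted p under 0.05 stood 1 of the 10 in each.

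**Figure D5:**
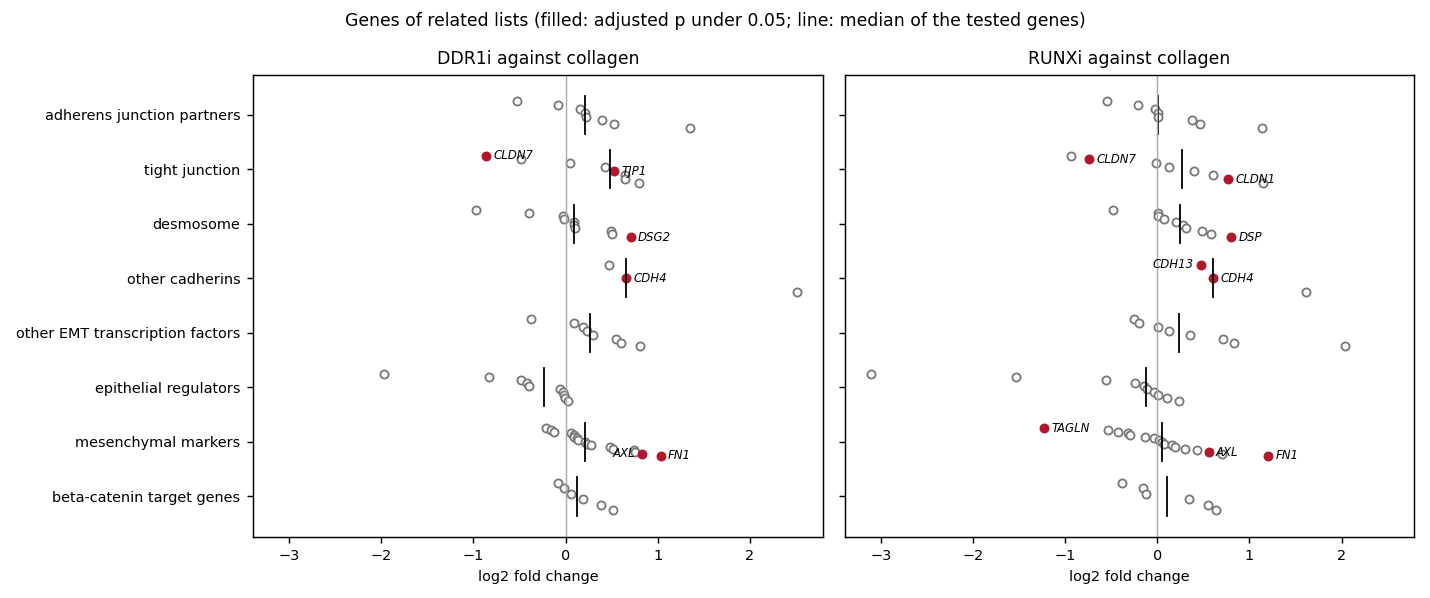
Log2 fold change (x axis) of each tested gene in 8 related lists (y axis) for DDR1i (left) and RUNXi (right) against collagen; filled and named points passed an adjusted p of 0.05 and the black line is the list's median. Named points lie on both sides of 0 among the tight junction and, with RUNXi, the mesenchymal genes.

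Many of the 20 calls in these lists were lost when libraries changed. When 1 library was left out, 7 calls passed in every fit (*CDH4* and *AXL* with DDR1i against collagen, *CDH4* and *TAGLN* with RUNXi against collagen, *CLDN1* and *TAGLN* in DDR1i against RUNXi, and *AXL* in DDR1i against control). Another 3 passed in all fits but 1, which were *DSP* (lost without RUNXi replicate 3), *AXL* (without collagen replicate 1) and *FN1* (without collagen replicate 4), all with RUNXi against collagen. The other 10 passed in 7 fits or fewer. Besides *DSG3* and *PPL*, these were *CLDN7* (7 of 11 with DDR1i, 6 of 11 with RUNXi), *DSG2* (7 of 11, and 0.46 without collagen replicate 4), *TJP1* and *FN1* with DDR1i (4 of 11 each), *CLDN1* with RUNXi against collagen (3 of 11) and *CDH13* (2 of 11).

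Of the 14 calls against collagen, 3 were kept with collagen replicate 3 included (*AXL* with DDR1i, *CDH4* and *TAGLN* with RUNXi), 10 with all 4 groups in the fit and 2 with the length trend removed (*AXL* with DDR1i and *TAGLN* with RUNXi). Both calls between the inhibitors were kept under these alternatives. Of the 4 calls against the control, 1 (*AXL*) was kept with all 4 groups in the fit, with or without collagen replicate 3, and 2 (*AXL* and *DSG3*, with DDR1i) with the length trend removed. No fold change turned its direction under these alternatives.

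Genes whose level followed that of the 10 most closely over all 16 libraries are given as a description, with Pearson's r of log2 CPM. Groups, depth and libraries are shared by all points. *VIM* went with *ANXA2* (r = 0.933), *CTSB* (0.884) and *PLAU* (0.846). *CDH3* went with *NATD1* (0.930), *MAP3K6* (0.918) and *FOXP4* (0.906), and *CDH1* with *TNFRSF10A* (0.843), *ABCC5* (0.776) and *WDR62* (0.764). *ZEB1* went with *GCNT1* (0.863), *SAMSN1* (0.810) and *HSD11B1* (0.797). Among the 10 genes themselves the highest r was that of *ZEB1* and *ZEB2* (0.692) and the lowest that of *CDH1* and *CDH2* (−0.688). The library numbered 4 was the lowest for *CDH2* in 4 of 4 groups and the highest for *CDH1* in 3. The same number was highest in 3 or more groups for 31% of genes.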

How the data were processed

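RNA-seq counts of 16 MCF10A libraries, 4 in each of 4 groups, were analysed. The authors deposited raw counts of reads per gene, after alignment to hg19 with STAR according to the submitters' processing notes; the counting tool, its annotation and the use of strand were not given in the sources used here, so that reads shared with overlapping or antisense genes are uncertain. Total counts per library ranged from 12184619 to 44332378. Counts of replicates differed by more than sampling noise (lowest chi-square per degree of freedom 18.3).

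Differential expression was tested with edgeR 4.0.16 in R 4.3.3 (TMM, filterByExpr, quasi-likelihood with robust estimates) and p-values were adjusted by Benjamini-Hochberg over all tested genes, with a threshold of 0.05. Inhibitors and collagen were fitted together without collagen replicate 3 (11 libraries), as were control and collagen (7 libraries) and control and inhibitors (12 libraries). Levels are CPM with TMM factors of all 16 libraries, and log2 CPM for correlations used a prior count of 2. Gene positions came from GENCODE lifted to GRCh37.

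Named were the 10 genes, up to 3 genes per related list and comparison with the smallest adjusted p under 0.05, and the 3 genes most correlated with *CDH1*, *CDH3*, *VIM* and *ZEB1*. The genes and lists were chosen with earlier results of these data known. In the tight junction list, 1 gene is not reported here. Alternatives were DESeq2 1.42.0, other size factors, other filters, other libraries in the fit, a replicate block, removal of a length trend (spline with 4 degrees of freedom) and leaving out each library. DESeq2 with collagen replicate 3 included was added after seeing the data.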

Additional observations from a re-analysis of the deposited data

Results flagged for a closer look

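In 3 of 40 groups of 4 values of the 10 genes, 1 library stood far from the rest of its group by Dixon's test, where chance gives about 2. *VIM* reached 1125 CPM in collagen replicate 4, and the other collagen libraries lay between 792 and 842 CPM. *ZEB1* stood at 1.99 CPM in control replicate 3, below 4.69 to 4.79 CPM in the other controls. *TWIST1* reached 22.3 CPM in DDR1i replicate 1, above 15.4 to 16.6 CPM in the others.

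The response to the inhibitors differed, by the direct test of DDR1i against RUNXi, in *CLDN1* (−1.25 on the log2 scale) and *TAGLN* (1.07). *CLDN1* was higher with RUNXi in all 4 libraries and *TAGLN* lower in all 4 than with DDR1i. Groups that did not overlap were seen in 4.5% of all tested genes, and both genes were named because they passed this same test.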

How the results depend on the processing

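The number called among the 10 genes moved in DDR1i against RUNXi from 0 to 1 (*VIM*) with DESeq2 and with no filter, in DDR1i against collagen from 0 to 1 (*EPCAM*) with no filter and with the replicate block, and in DDR1i against control from 1 to 0 with the length trend removed. Leaving out 1 library gave 0 to 1 in both DDR1i against collagen (*VIM* without collagen replicate 4, *EPCAM* without DDR1i replicate 1) and DDR1i against RUNXi (*VIM* without collagen replicate 4). Of 514 fold changes of the 10 genes under alternatives that left out no single library, 509 stayed on their side of the threshold, and 21 that passed in neither changed sign. The cause of these changes was not tested.

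Calls over all genes moved more. In DDR1i against collagen, 334 became 857 with DESeq2, 755 with no filter, 537 with the block, 155 with the length trend removed and 9 with collagen replicate 3. In RUNXi against collagen, 549 became 1160, 1046, 759, 201 and 60. In DDR1i against RUNXi, 77 became 134 with DESeq2, 163 with no filter and 154 with the block. Collagen against control had 0, but 414 with DESeq2, 284 with no filter and 313 with all groups in the fit; DESeq2 with collagen replicate 3 gave 0. DDR1i against control had 28, but 66 with DESeq2, 116 with the block, 17 with all groups, 14 with all groups and collagen replicate 3, 18 with the length trend removed and 12 without control replicates 2 and 3. RUNXi against control had 53, but 112, 162, 35, 31, 37 and 21, and 81 with no filter. Removal of the length trend changed the share of calls that were higher from 68.6% to 21.9% (DDR1i) and from 63.9% to 40.8% (RUNXi) against collagen, and from 71.4% to 44.4% and from 60.4% to 40.5% against the control. Leaving out 1 library gave 60 to 662, 123 to 715 and 53 to 109 calls in the comparisons with collagen and between inhibitors, 0 in collagen against control, and 8 to 47 and 26 to 78 against the control.

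The replicate numbers were not taken to pair the libraries, since the labels do not say what libraries of the same number share. Whether they were paired was not tested. Of 24 same-numbered pairs, 7 correlated above 0.1 (median of all 24 0.069, range −0.093 to 0.276). Of these 7, 6 were all the pairs numbered 4 (0.161 to 0.276), so that libraries of that number deviated together, and 1 was a pair numbered 2. With the replicate block *EPCAM* in DDR1i against collagen was −0.62 (edgeR adjusted p = 0.0264), and *VIM* in DDR1i against control passed.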
